A study of Mus musculus with 9 samples.

Results

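The Fc receptors for IgG were followed in cultured mouse macrophages at rest, after inflammatory activation, and after activation with photobiomodulation (PBM). The set held 6 genes of the 55655 rows in each expression table. They were taken by their Ensembl identifiers, which paired with the symbols Fcgr1 (ENSMUSG00000015947), Fcgr2b (ENSMUSG00000026656), Fcgr3 (ENSMUSG00000059498), Fcgr4 (ENSMUSG00000059089), Fcer1g (ENSMUSG00000058715) and Fcgrt (ENSMUSG00000003420). The rule used no measured value, although the set was chosen with earlier results of these data known. All 6 were found in every library, and all 6 passed the minimum level set for testing.

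Macrophages use these receptors to bind the constant part of IgG and so to recognise antibody-coated particles. Fcgr1, Fcgr3 and Fcgr4 encode the ligand-binding chains of activating receptors, which signal through the shared FcR gamma chain encoded by Fcer1g. That chain carries an immunoreceptor tyrosine-based activation motif (ITAM), on which Src family kinases and Syk act. Fcgr2b encodes the inhibitory receptor, which carries an inhibitory motif (ITIM) and recruits the phosphatase SHIP1. Fcgrt encodes the neonatal receptor FcRn, a class I-like molecule that pairs with beta-2-microglobulin and returns IgG from endosomes. The balance of activating and inhibitory receptors on a macrophage is known to set its threshold for responding to immune complexes.

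The cells were bone marrow-derived macrophages (BMDMs) from the femur and tibia of wild-type C57BL/6 mice aged 6 to 8 weeks, and all groups shared 7 days of culture with M-CSF at 10 ng/mL. The M0 group consisted of these resting macrophages, which received no PBM. The M1 group received lipopolysaccharide (LPS) and IFN-γ, and the M1 + PBM group received the same stimulus together with near-infrared laser irradiation. RNA of both M1 groups was taken at 12 hours of induction, and the labels give no matching time for M0. Each group had 3 libraries. The labels do not say whether the 3 came from separate cultures or animals. The paper's figure legend gives 3 independent repeats of the experiment, without tying each library to a repeat. The p-values measure the spread between these libraries, and how much of it is technical is not known.

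Expression was given as FPKM, which are fragment numbers divided by transcript length and by library depth, so that levels of different genes can be set side by side per length. The depth estimated from regular steps among low FPKM values was 30700000 to 34600000 fragments in M0, 31300000 to 39680000 in M1 and 34540000 to 42080000 in M1 + PBM. Only a preset range of depths was searched, so these depths and the fragment numbers drawn from them are approximate. If the estimated depths hold, at most 218.1 to 432.4 fragments lay behind the lowest member, Fcgrt, in each of the 6 stimulated libraries. All 6 macrophage markers examined (Adgre1, Itgam, Cd68, Csf1r, Lyz2 and Mertk) were present in every library, and the 5 M1 markers (Nos2, Il6, Il12b, Cd86 and Cxcl9) were higher in every M1 library than in every M0 library. The 5 B cell markers and the 5 natural killer and T cell markers stayed under 1 FPKM in all 9 libraries, as did 5 of 6 mast cell and basophil markers, the exception being Kit at 1.14 to 1.53 FPKM in M0. Of the 6 neutrophil markers, Ly6g and S100a9 were listed at 0 throughout, while S100a8 reached 27.2 FPKM and Camp 2.80 FPKM. Both S100a8 and Camp were higher in every M1 library than in every M0 library.

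Some libraries stood apart from their group. In M0 replicate 3, Col1a1 was at 122.8 FPKM against 4.44 and 3.44 in M0 replicates 1 and 2, and the summed level of 5 stromal markers ranged from 5.28 to 181.2 FPKM over the M0 libraries. The same library had Nos2 at 1.79 FPKM against 0.015 and 0.013, and Cxcl9 at 3.51 FPKM against 0.020 in replicate 2 and a listed 0 in replicate 1. In M1 replicate 2 the hepatocyte transcripts Alb and Ttr were at 9.01 and 3.14 FPKM, and Alb was listed at 0 in the 8 other libraries. Values without these libraries are given where they moved a direction or a mean by over 1.5 times, and the part of these transcripts in the results was not tested.

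The promoters of the receptor genes are shown because several members had higher levels in the stimulated groups than in M0. Each line gives the 150 bases that end just before the annotated start, 5′ to 3′ on the gene's own strand, from RefSeq on GRCm38.p6. All 6 members had an entry, of which the inhibitory receptor and the 3 activating receptors are printed. Capitals mark matches to 3 motifs, searched on both strands of a window from 250 bases before to 50 bases after the start. The first motif was the GAS-like TTCNNNGAA. The second was an ISRE-like element, a pair of GAAA separated by any 2 bases, a form bound by interferon regulatory factors. The third was GAGGAA, the core of sites of the myeloid factor PU.1, which reads TTCCTC on the other strand.
Fcgr1, chr3:96293970-96294119: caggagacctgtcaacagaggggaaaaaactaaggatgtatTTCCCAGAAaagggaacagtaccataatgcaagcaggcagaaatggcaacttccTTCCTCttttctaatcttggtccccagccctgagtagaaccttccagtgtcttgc
Fcgr4, chr1:171018776-171018925: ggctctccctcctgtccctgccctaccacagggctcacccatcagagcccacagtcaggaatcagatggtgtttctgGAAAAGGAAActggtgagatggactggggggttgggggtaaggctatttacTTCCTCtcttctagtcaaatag
Fcgr3, chr1:171059404-171059553: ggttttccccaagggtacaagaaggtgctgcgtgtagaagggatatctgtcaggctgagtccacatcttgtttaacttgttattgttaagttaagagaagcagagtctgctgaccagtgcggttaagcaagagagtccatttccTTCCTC
Fcgr2b, chr1:170976072-170976221: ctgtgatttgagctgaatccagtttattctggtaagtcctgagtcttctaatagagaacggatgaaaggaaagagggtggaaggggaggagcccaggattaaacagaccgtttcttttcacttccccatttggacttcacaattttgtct

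In Fcgr1, on the minus strand of chromosome 3, the GAS-like match TTCCCAGAA began 109 bases before the start and TTCCTC began 55 bases before it. In Fcgr4, on the plus strand of chromosome 1, the ISRE-like match GAAAAGGAAA began 73 bases before the start and TTCCTC 22 bases before it. Fcgr3, on the minus strand of chromosome 1, held TTCCTC alone, 6 bases before the start. No match to these letters was found in the windows of Fcgr2b, Fcer1g and Fcgrt. Of 32851 promoters searched in the same way, 8.3% held the GAS-like motif, 3.44% the ISRE-like motif and 28.3% GAGGAA. The motifs were chosen with these sequences known, so a match is only a description of the sequence and the shares give no measure of rarity. The motifs do not overlap in the windows shown. Fcgr2b, Fcgr4 and Fcgr3 are neighbours on chromosome 1 in that order. Fcer1g lies further along the same chromosome, with its window at chr1:171234300-171234599, and Fcgrt is on chromosome 7.

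The first comparison set the M0 level of each receptor beside its level in M1. Of the 6 genes, 4 were higher in every M1 library than in every M0 library (Fcgr1, Fcgr2b, Fcgr4 and Fcer1g), and Fcgrt was lower in every M1 library. Among 13593 rows, 15.3% were higher without overlap and 51.5% were lower without overlap. The same 5 genes had no overlap in the same directions between M1 + PBM and M0, against 15.4% of 13583 rows higher and 47.2% lower, except that Fcgrt overlapped after median-of-ratios scaling. The M0 libraries were deposited in a table of their own, so the table and the stimulus cannot be told apart, and these differences are described without a test. Since the RNA was taken from whole cultures, fewer cells of a type and less RNA per cell cannot be told apart either.

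Fcgr1, the high-affinity receptor for monomeric IgG, was at 23.6, 25.1 and 59.3 FPKM in M0 replicates 1 to 3, at 354.2, 314.2 and 490.2 in M1, and at 438.3, 321.0 and 509.3 in M1 + PBM. The lowest stimulated library was thus far above the highest M0 library, and the stimulated groups overlapped each other. The means were 36.0 ± 20.2, 386.2 ± 92.2 and 422.9 ± 95.1 FPKM (SD, n = 3 libraries each), and the M1 mean was 10.7 times the M0 mean. On the log2(FPKM + 1) scale the difference of M1 from M0 was 3.49. M0 replicate 3, which stood apart in Nos2 and Cxcl9, also had the highest Fcgr1 of its group, and the difference was 3.91 without it.

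Fcgr4, a receptor for mouse IgG2a and IgG2b, was at 23.2, 34.9 and 20.9 FPKM in M0 and at 243.3, 181.3 and 469.6 FPKM in M1. In M1 + PBM it was at 301.0, 210.8 and 408.3 FPKM. Every stimulated library was above every M0 library, and replicate 3 was the highest and replicate 2 the lowest in both stimulated groups. The means were 26.3 ± 7.48, 298.1 ± 151.8 and 306.7 ± 98.9 FPKM (SD, n = 3 libraries each), 11.3-fold higher in M1 than in M0.

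Fcgr3, a low-affinity receptor, was the activating member whose groups overlapped. Its FPKM was 173.3, 150.3 and 92.2 in M0, 180.6, 97.8 and 133.5 in M1, and 203.8, 91.6 and 171.3 in M1 + PBM. The means were 138.6 ± 41.8, 137.3 ± 41.5 and 155.6 ± 57.7 FPKM (SD, n = 3 libraries each). The M1 minus M0 difference was -0.0089 on the log2(FPKM + 1) scale and 0.43 after median-of-ratios scaling of the 9 libraries, with overlap on both scales, so no direction is given for this gene. Without M0 replicate 3 it was -0.28.

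Fcgr2b, the inhibitory receptor, had the lowest mean of the 6 genes in M0 and the largest fold between M0 and M1. It was at 4.89, 7.46 and 8.53 FPKM in M0, at 124.5, 123.3 and 132.7 FPKM in M1, and at 124.3, 120.4 and 113.5 FPKM in M1 + PBM. The groups of M0 and stimulated libraries were far apart, and the 6 stimulated libraries lay close together. The means were 6.96 ± 1.87, 126.9 ± 5.12 and 119.4 ± 5.47 FPKM (SD, n = 3 libraries each), an 18.2-fold difference between M1 and M0. Fcgr2b and Fcgr3 share sequence, with 166 windows of 50 nucleotides in common between their longest coding transcripts, which is 12.8% of the windows of Fcgr3 and 4.75% of those of Fcgr2b. How fragments from these stretches were divided between the genes is not given in the sources used here, so both levels are uncertain. For Fcgr2b in M0 the uncertainty may be well above its share of windows, because Fcgr3 had many more fragments. If the estimated depth holds, at most 7168.5 fragments lay behind Fcgr3 and 531.7 behind Fcgr2b in M0 replicate 1. The 18.2-fold difference is uncertain for the same reason. The antisense gene Gm38204 shares 155 exonic bases with Fcgr2b, had a mean of 1.64 FPKM over the 6 stimulated libraries, and the libraries were strand-specific, although the strand setting used for the values is not stated.

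Fcer1g, the shared signalling chain, had the highest mean of the 6 genes in all groups. Its FPKM was 200.3, 202.1 and 215.0 in M0, 438.7, 538.3 and 479.8 in M1, and 396.6, 510.8 and 503.6 in M1 + PBM. The M0 libraries lay close together and below all stimulated libraries. The mean was 205.8 ± 8.02 FPKM in M0, 485.6 ± 50.05 FPKM in M1 and 470.3 ± 64.0 FPKM in M1 + PBM, as mean ± SD of 3 libraries. The M1 mean was 2.36 times that of M0.

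Fcgrt, the neonatal receptor, was the member with a lower level in M1 than in M0. It was at 15.4, 11.1 and 7.13 FPKM in M0, at 4.76, 4.97 and 3.94 FPKM in M1, and at 7.07, 3.44 and 5.28 FPKM in M1 + PBM. Its lowest M0 library, replicate 3, was only just above its highest M1 + PBM library, replicate 1. The means were 11.2 ± 4.12, 4.55 ± 0.54 and 5.27 ± 1.81 FPKM (SD, n = 3 libraries each), the M1 mean being 0.407 of the M0 mean. After median-of-ratios scaling of the 9 libraries, M1 + PBM overlapped M0 for this gene, while M1 stayed below M0.

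**Figure D1:**
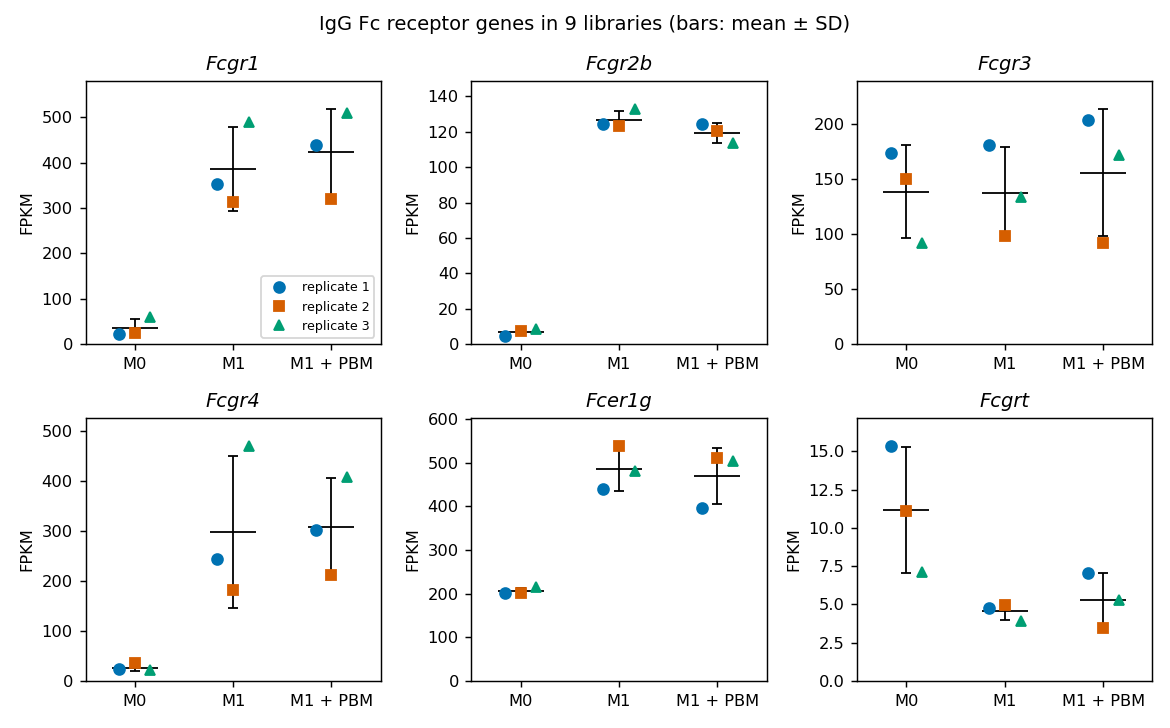
FPKM of the 6 IgG Fc receptor genes in each library (linear axes from 0), with M0, M1 and M1 + PBM along the horizontal axis. Points are libraries, marked by replicate number, and the horizontal lines and bars are means ± SD of 3 libraries. Fcgr1, Fcgr2b, Fcgr4 and Fcer1g are higher in all stimulated libraries than in M0, Fcgr3 overlaps, and Fcgrt is lower, although M1 + PBM overlaps M0 for Fcgrt after median-of-ratios scaling.

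The level of all rows differed between the tables, and the receptors are therefore also given relative to it. The median row was lower in M1 than in M0 by a log2 difference of -0.35. The differences of Fcgr2b (4.03), Fcgr1 (3.49) and Fcgr4 (3.37) stood at percentiles 99.2, 98.9 and 98.7 of all rows, that of Fcer1g (1.23) at percentile 93.3 and that of Fcgrt (-1.08) at percentile 12.1. Median-of-ratios scaling brought the median row to -0.0082 and gave 4.43 for Fcgr2b, 3.92 for Fcgr1, 3.80 for Fcgr4, 1.67 for Fcer1g and -0.70 for Fcgrt. The 5 directions were the same after scaling.

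The order of the genes by level also differed between M0 and the stimulated groups. In M0 the order of mean FPKM was Fcer1g, Fcgr3, Fcgr1, Fcgr4, Fcgrt and Fcgr2b, where the libraries of Fcgr1 overlapped those of Fcgr4 and the libraries of Fcgrt overlapped those of Fcgr2b. In M1 and in M1 + PBM it was Fcer1g, Fcgr1, Fcgr4, Fcgr3, Fcgr2b and Fcgrt. In both stimulated groups Fcer1g overlapped Fcgr1, Fcgr1 overlapped Fcgr4, and Fcgr3 overlapped Fcgr2b. Compared within each library, Fcgr1 was above Fcgr4 in 3 of 3 libraries of both groups, so that pair kept its order although the ranges overlapped. Fcer1g was above Fcgr1 in 2 of 3 M1 libraries and 1 of 3 M1 + PBM libraries, and Fcgr3 was above Fcgr2b in 2 of 3 libraries of each group, so the order of these neighbours did not hold in every library. In M1, Fcer1g was 54th, Fcgr1 76th and Fcgr4 98th among all rows by mean FPKM, whereas Fcgrt was 5933rd.

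The make-up of the activating receptor transcripts was set out as shares of the summed FPKM of Fcgr1, Fcgr3 and Fcgr4. The sum was 200.9 ± 25.2 FPKM in M0, 821.6 ± 252.8 in M1 and 885.1 ± 238.1 in M1 + PBM, as mean ± SD of 3 libraries. Fcgr3 made up 67.9% ± 13.0 of it in M0, 17.3% ± 5.54 in M1 and 17.3% ± 3.73 in M1 + PBM. Fcgr1 made up 19.0% ± 13.3, 47.8% ± 4.50 and 48.2% ± 2.81 in the same order. The M0 mean of Fcgr1 rested on M0 replicate 3, at 34.4% against 10.7% and 11.9%, and was 11.3% without it. Fcgr4 made up 13.1% ± 3.13, 34.9% ± 6.96 and 34.4% ± 2.84 in M0, M1 and M1 + PBM. In M0 the share of Fcgr3 was never under 53.5% in a library, and in the stimulated libraries it was at most 23.2%. The ratio of Fcer1g to this sum was 1.04 ± 0.18 in M0, 0.637 ± 0.24 in M1 and 0.567 ± 0.22 in M1 + PBM.

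The ratio of each activating receptor to the inhibitory Fcgr2b within a library does not depend on how libraries are scaled to each other. The ratio of Fcgr3 to Fcgr2b was 22.1 ± 12.5 in M0, 1.08 ± 0.34 in M1 and 1.30 ± 0.47 in M1 + PBM, as mean ± SD of 3 libraries. Its lowest M0 library, at 10.8, was above its highest stimulated library, at 1.64. The sequence that Fcgr3 and Fcgr2b share leaves the M0 values of this ratio uncertain. The ratio of Fcgr1 to Fcgr2b was 5.05 ± 1.81, 3.03 ± 0.59 and 3.56 ± 0.91, and that of Fcgr4 to Fcgr2b was 3.96 ± 1.31, 2.32 ± 1.08 and 2.59 ± 0.94 in the same order. For both of these, the M0 libraries overlapped the stimulated ones.

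**Figure D2:**
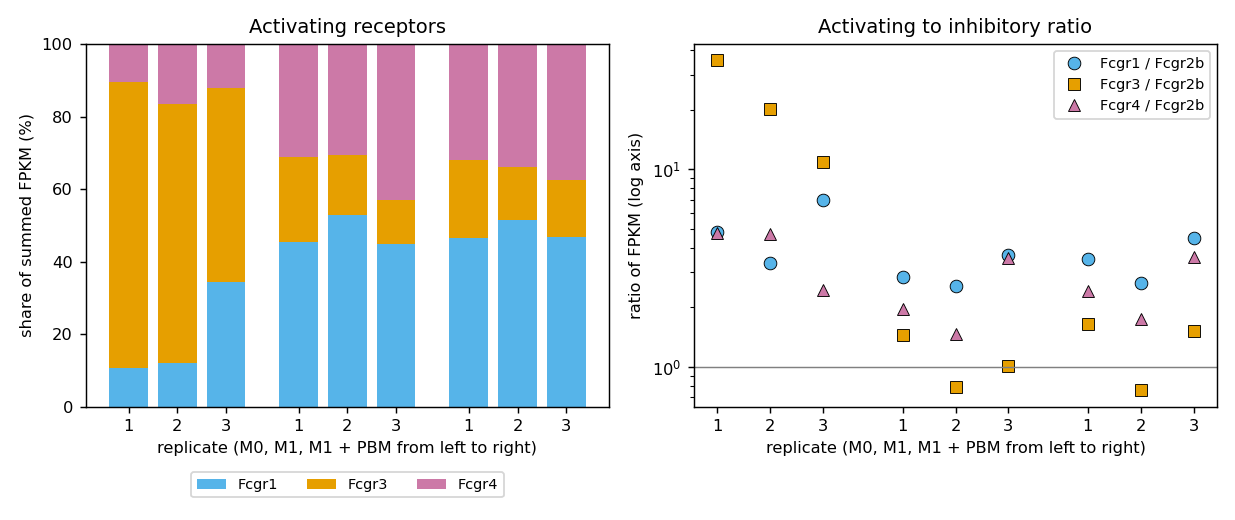
Left, share of the summed FPKM of Fcgr1, Fcgr3 and Fcgr4 taken by each gene (%), 1 bar per library. Right, ratio of each of these genes to Fcgr2b in each library on a log axis, with a grey line at equality. Fcgr3 holds the largest share in every M0 library and the smallest in every stimulated library, and its ratio to Fcgr2b is 22.1 on average in M0 against 1.08 in M1.

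The second comparison asked whether PBM altered the receptors in M1 macrophages. None of the 6 genes passed a threshold, and in all 6 the M1 + PBM libraries overlapped the M1 libraries. In limma's fit over 12238 rows, 0 of 6 members had an unadjusted p of 0.05 or less, where 4.44% of all rows did. By the study's thresholds, the same p with a log2 fold change of 1 or more in size, 0.261% of rows were called, and by a Benjamini-Hochberg adjusted p under 0.05 0.00817% were called, with 0 members in both cases. Groups did not overlap for 11% of rows. The estimate was above 0 for 4 of 6 members and for 65.6% of all rows, and its median was 0.12 for the members and 0.058 for all rows.

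The 95% intervals give the size of the differences that the 6 libraries allow. For Fcgr2b the fitted log2 difference of M1 + PBM from M1 was -0.087 (SE 0.095, 95% interval -0.32 to 0.14, limma adjusted p = 0.90), and for Fcer1g it was -0.050 (SE 0.15, -0.40 to 0.30, limma adjusted p = 0.96). A change of 1 on the log2 scale lies outside both intervals. For Fcgr1 it was 0.13 (SE 0.23, -0.43 to 0.69, limma adjusted p = 0.94) and for Fcgrt 0.14 (SE 0.22, -0.40 to 0.67, limma adjusted p = 0.93). Without the replicate block, Fcgr3 and Fcgr4 had the widest intervals, at 0.15 (SE 0.35, -0.69 to 0.99, limma adjusted p = 0.96) and 0.11 (SE 0.39, -0.84 to 1.06, limma adjusted p = 0.97), and the interval of Fcgr4 included a log2 difference of 1. With the replicate block the intervals were -0.14 to 0.43 for Fcgr3, -0.22 to 0.43 for Fcgr4 and -0.11 to 0.37 for Fcgr1, and the widest was that of Fcgrt, at -0.39 to 0.66. In the blocked fit a log2 difference of 1 lay outside all 6 intervals. The labels do not state that the replicate numbers pair the samples, and the pairing was inferred from these same data. In two-sided exact permutation tests of 3 libraries against 3, which cannot go below p = 0.1, p was 0.2 for Fcgr2b, 0.7 for Fcgr1, Fcer1g and Fcgrt, and 0.8 for Fcgr3 and Fcgr4.

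The spread within groups ran along the replicate numbers for several members. Fcgr1, Fcgr3 and Fcgr4 were lowest in replicate 2 of both M1 and M1 + PBM, Fcgr1 and Fcgr4 were highest in replicate 3 of both, and Fcgr3 was highest in replicate 1 of both. Fcer1g ran differently, with its highest value in replicate 2 and its lowest in replicate 1 of both groups. The pooled SD within groups on the log2(FPKM + 1) scale was 0.60 for Fcgr4, 0.53 for Fcgr3, 0.34 for Fcgr1, 0.32 for Fcgrt, 0.18 for Fcer1g and 0.062 for Fcgr2b, where the median row had 0.17. Fcgr4 and Fcgr3 thus stood at percentiles 95.7 and 94.1 of all rows in spread and Fcgr2b at percentile 5.38. M1 replicate 2, the library with hepatocyte transcripts, was the lowest M1 library for the 3 activating receptors, as M1 + PBM replicate 2 was in its group, where Alb was listed at 0.

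Between libraries of the same number, the activating receptors differed less than within a group. The SD of the 3 pair differences was 0.15 for Fcgr1, 0.23 for Fcgr3 and 0.27 for Fcgr4, and 0.49 for Fcgrt. Fcgr1 was higher with PBM in 3 of 3 pairs, by log2 differences of 0.31, 0.031 and 0.055. Fcgr4 was higher in replicates 1 and 2 (0.31 and 0.22) and lower in replicate 3 (-0.20), and Fcgr3 was higher in replicates 1 and 3 (0.17 and 0.36) and lower in replicate 2 (-0.093). Fcgr2b was lower in 3 of 3 pairs, by differences of -0.0029, -0.034 and -0.22. Fcer1g was lower in 2 of 3 pairs, and Fcgrt was higher in replicates 1 and 3 (0.49 and 0.35) and lower in replicate 2 (-0.42). With the replicate number as a block, the standard error fell from 0.23 to 0.091 for Fcgr1, from 0.35 to 0.11 for Fcgr3 and from 0.39 to 0.12 for Fcgr4. No member reached an unadjusted p of 0.05 in that fit either, the values running from 0.21 for Fcgr1 to 0.57 for Fcer1g.

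**Figure D3:**
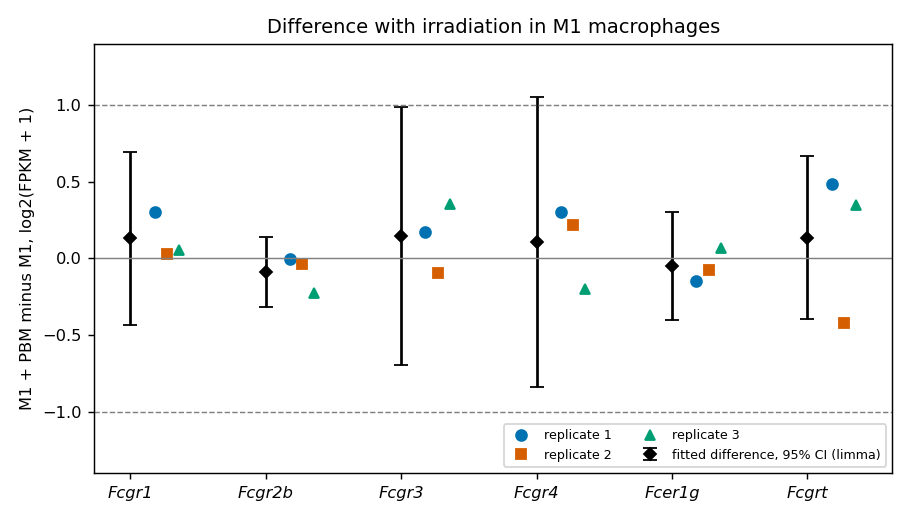
Difference between M1 + PBM and M1 on the log2(FPKM + 1) scale for each gene. Diamonds are limma estimates with 95% intervals, coloured points are the differences within each replicate number, and dashed lines mark a log2 difference of 1 in either direction. All 6 intervals include 0, and Fcgr2b has the narrowest and Fcgr4 the widest in this fit without the replicate block.

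The activating to inhibitory ratios were tested in the same libraries. For these tests 1 was added to each FPKM before the log2 ratio was taken, so they are not wholly free of library scaling. The log2 ratio of Fcgr1 to Fcgr2b was higher in M1 + PBM by 0.22, with differences of 0.31, 0.065 and 0.28 in the 3 pairs. An exact permutation test gave p = 0.6 without pairing and p = 0.25 with it, the smallest value that 3 pairs allow. For Fcgr4 to Fcgr2b the difference was 0.19, also above 0 in 3 of 3 pairs (0.31, 0.25 and 0.023), with exact p = 0.7 without and p = 0.25 with pairing. For Fcgr3 to Fcgr2b it was 0.23, above 0 in 2 of 3 pairs, with exact p = 0.7 and p = 0.5. None of the 3 ratios was shown to differ, and an exact test of 3 pairs could not have reached p = 0.05. Without M1 replicate 2 the difference for Fcgr4 turned to -0.084, and without M1 + PBM replicate 3 to -0.073.

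The genes that act with or below these receptors were examined in 5 lists, of which 61 genes were tested. An unadjusted p of 0.05 or less was reached by 4 of the 61 (3 higher and 1 lower with PBM), while 2.99% of all rows were higher and 1.45% lower at that p, and none passed the adjusted or the study's thresholds. The median log2 difference over the 61 was 0.12, beside 0.058 over all rows. Estimates above 0 numbered 42 of the 61, beside 65.6% of all rows. After median-of-ratios scaling they numbered 35 of the 61, beside 6042 of the 12238 rows. This scaling also took the split over all rows at that p from 366 higher and 177 lower to 240 higher and 290 lower. With this scaling the count at that p among the 61 was 2, beside 530 of all rows. Without M1 + PBM replicate 2 it was 7, beside 930 of all rows.

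Among 12 other Fc receptor genes, 3 were high enough to be tested. Fcrlb, an intracellular Fc receptor-like protein, was at 4.75, 3.52 and 5.77 FPKM in M1 and at 2.66, 1.64 and 3.71 FPKM in M1 + PBM, with overlap. Its log2 difference was -0.65 (SE 0.25), with an unadjusted p of 0.035 and a limma adjusted p of 0.90. Trim21, the cytosolic antibody receptor, was at 32.6 ± 2.13 FPKM in M1 and 29.4 ± 2.99 FPKM in M1 + PBM, and Fcrls differed by -0.24 with overlapping libraries, and by 0.51 without M1 replicate 3. Fcer1a, the alpha chain of the high-affinity IgE receptor that also uses the FcR gamma chain, was listed at 0 in all 9 libraries.

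In the activating ITAM list, 0 of 21 genes reached an unadjusted p of 0.05, where 4.44% of all rows did. Of the estimates, 14 were above 0 and 7 below (65.6% of all rows were above 0), with a median of 0.13. The largest were those of Malt1 (-0.74, SE 0.55), Card9 (0.26, SE 0.12) and Vav3 (0.24, SE 0.16). Malt1 was at 22.5, 36.1 and 7.13 FPKM in M1 + PBM replicates 1 to 3, and its difference was -0.12 without replicate 3. Malt1 and Card9 belong to the complex that links these receptors to NF-κB, and Vav3 is a guanine nucleotide exchange factor. Between M0 and M1, 10 of the 21 were higher and 8 lower without overlap, where 15.3% of all rows were higher and 51.5% lower. Chosen after their values were seen, the kinases Lyn (48.7 FPKM in M0 and 134.8 in M1) and Syk (58.0 and 162.3) were higher in every M1 library, while Tyrobp, another ITAM adaptor, was lower (848.6 and 461.5).

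In the inhibitory ITIM list, 1 of 15 genes reached an unadjusted p of 0.05, beside 4.44% of all rows. Dok1, an adaptor that works below inhibitory receptors, was at 22.4, 25.3 and 25.5 FPKM in M1 and at 30.1, 31.0 and 34.4 FPKM in M1 + PBM. Its groups did not overlap, and its log2 difference was 0.37 (SE 0.10, unadjusted p = 0.010, limma adjusted p = 0.90). The other large estimates were those of Inpp5d, which encodes SHIP1 (0.37, SE 0.30), and Dok2 (0.35, SE 0.40). Both rested on M1 + PBM replicate 3, without which they were 0.082 for Inpp5d and -0.12 for Dok2. Estimates were above 0 for 13 of the 15, beside 65.6% of all rows, with a median of 0.15. Between M0 and M1, 3 of the 15 were higher and 4 lower without overlap, beside 15.3% and 51.5% of all rows.

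In the list of the phagocytic cup and actin, 2 of 19 genes reached an unadjusted limma p of 0.05, beside 4.44% of all rows. Dock2 differed by 0.27 (SE 0.10, unadjusted p = 0.041, limma adjusted p = 0.90). Myo1f differed by 0.36 (SE 0.15, unadjusted p = 0.045, limma adjusted p = 0.90). Dock2 is an exchange factor for Rac and Myo1f a myosin of leukocytes. After median-of-ratios scaling the differences were 0.19 for Dock2 and 0.29 for Myo1f, and neither gene reached the limit of 0.05. Leaving out each library gave 0.22 to 0.34 for Dock2 and 0.24 to 0.47 for Myo1f. Both genes missed the limit without replicate 1 or replicate 3 of either group, and Dock2 also without M1 replicate 2. The largest estimates were those of Rac1 (0.53, SE 0.35), Pak1 (0.51, SE 0.22) and Gsn (0.49, SE 0.24). For Rac1 the difference rested on M1 + PBM replicate 1, at 49.0 FPKM, where the other libraries of that group were at 18.7 and 20.1 FPKM, and it was 0.10 without that library. That of Gsn was 0.23 without M1 + PBM replicate 3. Between M0 and M1, 8 of the 19 were higher and 7 lower without overlap, again beside 15.3% and 51.5% of all rows. Gsn, the actin-severing protein gelsolin, was at 133.2 ± 22.5 FPKM in M0 and 25.5 ± 0.54 FPKM in M1.

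The partner of the neonatal receptor differed between M0 and M1 in the opposite direction. B2m was at 509.0 FPKM in M0, 1415 FPKM in M1 and 1341 FPKM in M1 + PBM, and the class I genes H2-K1 and H2-D1 were also higher in every M1 library than in every M0 library. The ratio of B2m to Fcgrt was 53.4 ± 35.8 in M0, 316.1 ± 69.5 in M1 and 279.0 ± 106.7 in M1 + PBM, as mean ± SD of 3 libraries. M0 replicate 3, at 94.5, was far above the other M0 libraries, and without it the M0 mean was 32.8. With PBM the log2 differences from M1 were -0.078 for B2m, 0.11 for H2-K1 and -0.13 for H2-D1. An unadjusted p of 0.05 was reached by 0 of 3, beside 4.44% of all rows.

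**Figure D4:**
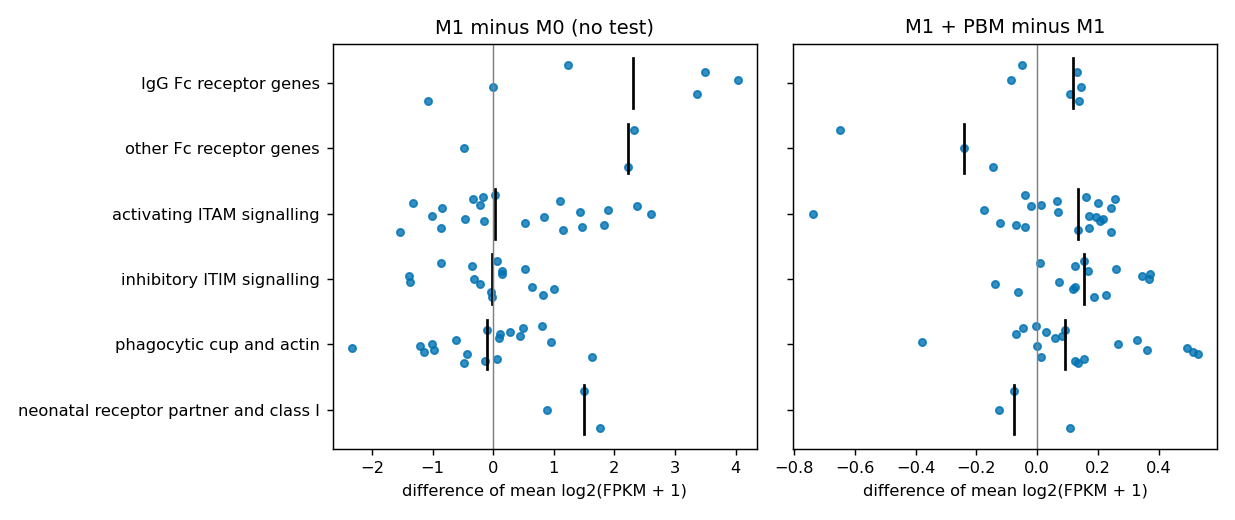
Differences of mean log2(FPKM + 1) for each tested gene of the IgG Fc receptor set and of the 5 related lists, M1 minus M0 on the left and M1 + PBM minus M1 on the right, on separate scales. Points are genes and vertical black lines are list medians. On the left the points run from -2.33 (Gsn) to 4.03 (Fcgr2b), and on the right all lie between -0.74 (Malt1) and 0.53 (Rac1), both of which rest on a single M1 + PBM library (-0.12 and 0.10 without it).

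Genes whose pattern was most like that of each receptor were named by Pearson's r of log2(FPKM + 1) over the 9 libraries, among 13631 rows with a symbol. The points share 3 groups and 2 tables, so r includes the step between M0 and the stimulated libraries, and it is given as a description. For Fcgr1 they were Rapgef2, Gm4951 and Ifi44 (r = 0.998, 0.997 and 0.997), and 576 rows had r of 0.95 or more. For Fcgr2b they were Ms4a6d, Batf2 and Trafd1 (r = 0.998, 0.997 and 0.997), with 619 such rows, and for Fcgr4 Ovol1, Lrp10 and Pik3ap1 (r = 0.992, 0.992 and 0.992), with 301. Fcer1g was most like Chmp2a, Ifngr2 and Gm16301 (r = 0.990, 0.988 and 0.988, with 410 such rows), and Fcgrt most like Wbp1, Ddx6 and Gm11633 (r = 0.991, 0.984 and 0.976, with 35). Fcgr3 had few such rows. The most similar was Gm20732 (r = 0.953), the only row at 0.95 or more, followed by Gm45186 and Gm23169 at 0.907 and 0.906, all of which stayed near or under 2 FPKM in the 9 libraries.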

How the data were processed

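RNA-seq data of 9 libraries (3 each of M0, M1 and M1 + PBM) were used. Expression was deposited by the authors as FPKM in a pair of tables, 1 of M0 and 1 of the M1 and M1 + PBM libraries. The methods name Cufflinks for the expression values, and the submitters' processing notes name Bowtie 0.12.2 and the build mm9. Since 320 rows carry names of assembled loci, how these tools relate to the tables is uncertain, and coordinates are given only for RefSeq promoters on GRCm38.p6. Symbols of GENCODE M21 were paired with 55154 of 55655 rows. Columns were assigned to groups by the labels.

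M1 + PBM was compared with M1 on log2(FPKM + 1) with limma 3.58.1 in R 4.3.3 (lmFit, eBayes with trend), two-sided, after rows reaching 1 FPKM in fewer than 3 of the 6 libraries were removed, and p-values were adjusted by Benjamini-Hochberg over all 12238 rows. On this scale the change of low genes is understated. Single ratios were tested with exact permutation tests. The fit was tested on simulated data. Sums, shares and ratios of FPKM were computed within libraries, with Python 3.11.15. M0 entered no test.

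Depth was estimated from regular steps of low FPKM in single-transcript genes, where 23.6% to 25.2% of values were whole within 0.05 and evenly spread values give 10%. As most were not whole, reads were not recovered. Depths outside a preset range were not searched, so the estimates had to fall within it. Deviations from the group means correlated between same-numbered M1 and M1 + PBM libraries (r = 0.157, 0.469 and 0.462 for replicates 1 to 3). For different numbers r lay between -0.491 and 0.0328. Subtracting the group means by itself pulls the values for different numbers down when those for the same number are above 0. On these same data the numbers were taken to pair the samples, and the labels do not state a pairing. Blocked and paired results are therefore given beside the unpaired ones for the members and ratios. For the signalling genes the blocked p-values are given in the closing section.

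The members and the gene lists were chosen with earlier results of these data known. Named genes are the 6 members, the genes at an unadjusted p of 0.05 or less in each list or, where fewer than 3 reached it, the 3 with the largest difference, the markers, and the 3 rows most similar to each member. Dock2, Myo1f, Lyn, Syk, Tyrobp, Kit and Fcer1a fall outside this rule or were singled out after their values were seen. The promoter motifs were chosen with the sequences known. Alternatives were another pseudocount (0.1), no minimum or a mean of 5 FPKM, 2 other scalings, eBayes without trend, the replicate block and leaving out each library. Scaling of the 9 libraries and leaving out libraries for the M0 differences, the shares and ratios and the named signalling genes were added after seeing the data.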

Additional observations from a re-analysis of the deposited data

How the results depend on the processing

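For M1 + PBM against M1, 0 members and 0 signalling genes were called under every alternative run, and 0 members reached an unadjusted p of 0.05. The number of signalling genes at that p was 4 in the fit used for the results above, 2 with median-of-ratios scaling and 1 to 7 when each library was left out in turn. Dok2 ran from -0.12 (without M1 + PBM replicate 3) to 0.61 and Fcrls from -0.78 to 0.51 (without M1 replicate 3). The estimate of Fcer1g was 0.036 under quantile normalization, against -0.050. Leaving out each library gave -0.016 to 0.32 for Fcgr1, -0.086 to 0.49 for Fcgr3, -0.19 to 0.49 for Fcgr4, -0.12 to 0.068 for Fcer1g, -0.067 to 0.36 for Fcgrt and -0.084 to 0.55 for the log2 ratio of Fcgr4 to Fcgr2b, so the direction of these estimates rests on single libraries. M1 replicate 2 alone turned Fcgr1 (-0.0047), Fcgr3 (-0.075), Fcgr4 (-0.19) and Fcer1g (0.026). M1 + PBM replicate 3 turned Fcgr1 (-0.016) and Fcgr4 (-0.12), and M1 + PBM replicate 1 turned Fcgr3 (-0.086), Fcer1g (0.068) and Fcgrt (-0.067). Fcgr2b stayed between -0.12 and -0.051. The ratios of Fcgr1 and Fcgr3 to Fcgr2b stayed above 0, from 0.035 to 0.41 and from 0.030 to 0.58. Where such an estimate turned, the cause was not tested.

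With the replicate block, 0 members and 4 signalling genes had an unadjusted p of 0.05 or less, Malt1 standing in place of Myo1f. No call of a member or ratio was altered. The blocked limma fit gave an unadjusted p of 0.0011 for Fcrlb, 0.0056 for Dok1, 0.022 for Dock2 and 0.043 for Malt1. The limma adjusted p was 0.58 for each of them. Rows at an unadjusted p of 0.05 or less over the whole table numbered 988 with the block and 543 without it. By the study's thresholds the fit used here gave 32 rows, 3 higher and 29 lower with PBM. The paper's own count at the same cut-off values was larger, with more genes up than down. The paper names no test behind that count, and its fold changes need not be on the log2(FPKM + 1) scale. The counts are therefore not on a like measure. The fit used here gave 75 rows with a pseudocount of 0.1, 69 when M1 replicate 2 was left out and 89 when M1 + PBM replicate 2 was.

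Between M0 and M1, 5 members had no overlap whichever library was left out, and the log2 differences ran from 3.26 to 3.91 for Fcgr1, 3.83 to 4.18 for Fcgr2b, 2.98 to 3.67 for Fcgr4, 1.15 to 1.30 for Fcer1g, -1.34 to -0.84 for Fcgrt and -0.28 to 0.21 for Fcgr3. The intervals of Fcgr3 and Fcgr4 were wide without the block (SE 0.35 and 0.39) and narrower with it (SE 0.11 and 0.12).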
